A study of Equus asinus with 12 samples.

Results

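The gluteal muscle of Wutou donkeys was compared with their longissimus dorsi muscle across the transcriptome. Wutou and Sanfen are the strains of the Dezhou donkey (Equus asinus), which differ in coat colour, Wutou being black and Sanfen carrying pale points. The samples came from 24-month-old animals with no treatment given in the labels, and each of the 4 combinations of strain and muscle had 3 libraries: Wutou longissimus, Wutou gluteal, Sanfen longissimus and Sanfen gluteal. The study's design text counts 6 donkeys over the 2 strains, so libraries share animals, but no label ties a library to an animal and p-values measure the spread between libraries. Sex, diet and feeding state were not among the labels used here. The members are all loci with a value of at least 1 FPKM (fragments per kilobase of transcript, scaled to the size of the library) in at least 3 of the 6 Wutou libraries, which kept 9734 of 27084 listed loci. The same rule applied to the Sanfen libraries kept 10834 loci. Of the 9734 loci, 7653 carried 1 reference gene, 156 were reference non-coding transcripts, 908 were assembled loci named only by overlap with a gene, 685 had no name and 332 held several genes. In 6751 loci all 6 libraries reached 1 FPKM, while 82 loci passed through the 3 gluteal libraries alone and 31 through the 3 longissimus libraries alone.

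The longissimus dorsi is a long muscle of the back that extends and steadies the spine, and the gluteal muscles extend and abduct the hip and drive the hindlimb. Skeletal muscle is a mosaic of slow fibres, which burn fat and sugar in mitochondria and resist fatigue, and fast fibres, which contract quickly and lean on glycogen and glycolysis. Each fibre type uses its own isoforms of myosin, troponin, tropomyosin and the calcium pump. Muscles at different places in the body also keep part of the positional code of their embryonic origin, carried by homeobox and T-box transcription factors. In whole-muscle RNA, fewer cells of a type and less RNA per cell cannot be told apart.

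Muscle identity was clear in every Wutou library. Over the 12 skeletal muscle genes with a locus of their own, sums lay between 34377 and 39613 FPKM in longissimus. In gluteal muscle they lay between 29193 and 32629 FPKM, without overlap. This separation is of sums not scaled to the library totals, which differed too. As shares of those totals the sums overlapped between the muscles. Totals were 265498, 319767 and 293296 FPKM in longissimus libraries 1 to 3 and 214564, 277236 and 266717 FPKM in gluteal libraries 1 to 3. The part of these sums and totals in the differences below was not tested. CKM, the creatine kinase of muscle that rebuilds ATP from phosphocreatine, stood at 8018, 10174 and 10068 FPKM in longissimus libraries 1 to 3 and 6527, 7542 and 8562 FPKM in gluteal libraries 1 to 3. The 7 of 11 erythroid genes with a locus of their own summed to at most 0.198 FPKM in each library, with ALAS2, AHSP and HEMGN among those at 0 in all 6. Summed FPKM per library lay between 214564 and 319767, and read depth is unknown because the values are not counts. Pearson's r between libraries, computed across loci, had a median of 0.922 among libraries of the same muscle and 0.927 between muscles, as a description without a test. Wutou gluteal 1 stood apart in an abundant assembled locus, MSTRG.9787, which overlaps ARF6: its values were 48490.2, 49263 and 51473 FPKM in longissimus libraries 1 to 3 and 617, 36747 and 47746 FPKM in gluteal libraries 1 to 3. That library was also the lowest of the 6 in the fast fibre and ribosomal lists, so results on these lists are given with and without it.

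No locus passed an adjusted p of 0.05 in the linear model fitted with limma to all 12 libraries, that is 0% of 9734 loci. At an unadjusted p under 0.05 there were 582 loci (5.98%), of which 407 (4.18%) were higher and 175 (1.8%) lower in gluteal muscle. Leaving out 1 library moved this count to between 329, without Wutou longissimus 2, and 723, without Sanfen longissimus 2. In 868 loci (8.92%) all 3 gluteal values lay above all 3 longissimus values, and in 453 loci (4.65%) all lay below. These include the 82 and 31 loci that reached 1 FPKM in 1 muscle alone, where the filter itself fixed the separation. With other scaling, weights, blocks or libraries a few loci were called at an adjusted p under 0.05. NENF, ZNF24 and KIAA0513 were called with array weights and after rescaling the libraries by median of ratios or by quantiles. The same 3 loci were called with a random replicate block, which takes same-numbered libraries of a strain as related although no label pairs them. KCNJ11, NENF and STBD1 were called without Sanfen gluteal 1. UBQLN2 was called without Wutou longissimus 1, NENF alone without Sanfen gluteal 2, and a locus holding YWHAH and DEPDC5 without Wutou gluteal 3.

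The direction of the difference followed how abundant a locus was. Differences are given as gluteal minus longissimus on the scale of log2(FPKM + 1), which understates the change of weakly expressed genes, and errors on them are standard errors. Over all 9734 loci the median was 0.045, and 57.4% of loci were higher in gluteal muscle. Among the 3968 loci with a mean below 2 FPKM, 63.8% were higher in gluteal muscle, with a median of 0.068. Among the 473 loci between 20 and 100 FPKM, 32.8% were higher and the median was -0.13. Among the 178 loci of at least 100 FPKM 21.9% were higher and the median was -0.24. The split of the loci at an unadjusted p under 0.05 depended on the scaling: 69.9% were higher in gluteal muscle with the values as deposited, 45.8% after median-of-ratios rescaling (256 higher, 303 lower), 54.3% after quantile normalization and 43.1% among loci with a mean of at least 5 FPKM.

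**Figure D1:**
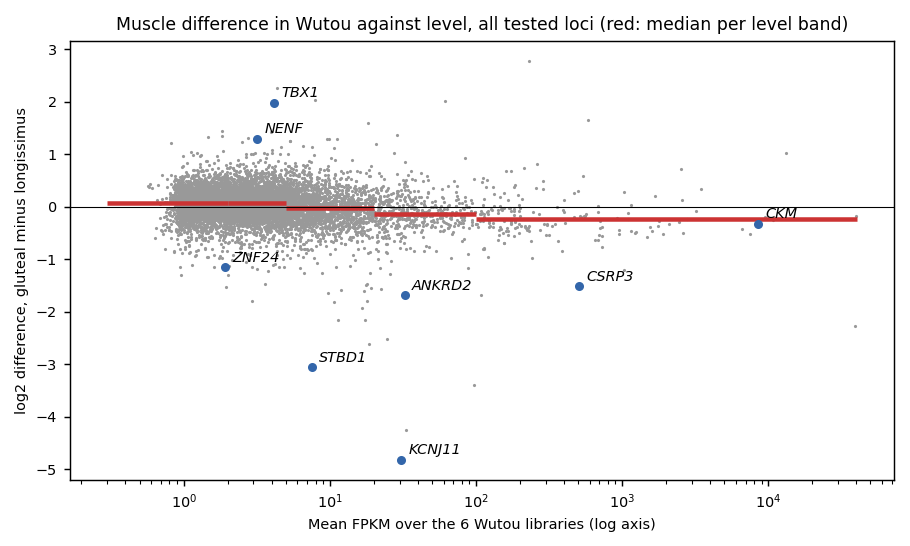
log2 difference (gluteal minus longissimus, log2(FPKM + 1) scale) against mean FPKM over the 6 Wutou libraries on a log axis, 1 grey point per tested locus, with 8 named genes in blue. The red lines are medians within bands of level, and they go from 0.068 in the lowest band to -0.24 in the highest.

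Of all loci, NENF had the smallest p. It encodes neudesin, a secreted protein that binds haem and acts on neurons. Its values were 1.41, 1.498 and 1.299 FPKM in longissimus libraries 1 to 3 and 4.57, 4.31 and 5.94 FPKM in gluteal libraries 1 to 3, a log2 difference of 1.30 ± 0.17 with an adjusted p of 0.083 (limma). The longissimus values were tightly grouped and all lay below the lowest gluteal value. In Sanfen, NENF was at 4.13, 4.52 and 3.73 FPKM in longissimus and 6.16, 3.92 and 5.99 FPKM in gluteal muscle, so the Wutou longissimus libraries were the 3 lowest of the 12.

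The other 11 genes with small p on the higher side had adjusted p well above the threshold. They were chosen among loci without overlap between the muscles. REEP5, which shapes tubules of the endoplasmic reticulum and in muscle cells the sarcoplasmic reticulum, stood at 3.04, 7.54 and 3.14 FPKM in longissimus libraries 1 to 3 and 10.6, 9.63 and 11.3 FPKM in gluteal libraries 1 to 3. Longissimus 2 lay above the other longissimus libraries, and all 3 gluteal values were still higher, for a log2 difference of 1.13 ± 0.28. TMEM131, a membrane protein involved in collagen secretion, measured 3.28, 2.76 and 3.02 against 5.71, 5.17 and 5.39 FPKM, a difference of 0.68 ± 0.16. TRIP11, a Golgi tether, measured 1.21, 0.941 and 1.34 against 2.75, 2.08 and 2.36 FPKM. The chromatin regulators SPEN, a transcriptional corepressor, and ASH1L, a histone H3 lysine methyltransferase, differed by 0.63 ± 0.16 and 0.61 ± 0.15. ASH1L was at 6.52, 4.77 and 5.55 FPKM in longissimus libraries 1 to 3 and 9.897, 8.98 and 8.26 FPKM in gluteal libraries 1 to 3, without overlap. MRPS11, a protein of the small mitochondrial ribosomal subunit, was at 4.97, 9.22 and 7.94 FPKM in longissimus libraries 1 to 3 and 12.4, 14.8 and 15.6 FPKM in gluteal libraries 1 to 3, a difference of 0.89 ± 0.23. PRRX1, a homeobox factor of limb mesenchyme and muscle fibroblasts, was at 0.824, 0.859 and 1.22 against 2.27, 1.75 and 2.02 FPKM, and ITGB6, an integrin subunit that activates latent TGF-beta, at 1.57, 1.76 and 1.30 against 3.22, 2.98 and 2.95 FPKM. LAPTM5, a lysosomal protein of blood cells, was at 1.36, 1.35 and 1.71 against 3.11, 3.99 and 3.06 FPKM. Of the 12 tested macrophage and immune genes, LAPTM5 among them, 3 were higher and 9 lower in gluteal muscle, with a median of -0.12. The split was 6 and 6 without longissimus 3 and 7 and 5 without gluteal 3. METAP2, which trims the first methionine from new proteins, was at 1.14, 0.9303 and 0.998 against 1.95, 2.27 and 1.84 FPKM. UBQLN2, a shuttle for ubiquitinated proteins, was present in all 3 gluteal libraries at 2.38, 2.96 and 1.99 FPKM, but in longissimus it reached 1.52 FPKM in replicate 1 and was listed at 0 in the other two. It was also listed at 0 in all 6 Sanfen libraries. Apart from NENF, the adjusted p of these genes lay between 0.613 and 0.818.

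On the lower side, ZNF24 and KIAA0513 had the same adjusted p as NENF, 0.083 (limma). ZNF24, a zinc finger repressor, was at 3.804, 2.18 and 3.098 FPKM in longissimus libraries 1 to 3 and 1.07, 0.575 and 0.734 FPKM in gluteal libraries 1 to 3, a log2 difference of -1.16 ± 0.16. KIAA0513, a cytoplasmic protein of poorly known function, was at 2.72, 2.48 and 3.09 FPKM in longissimus libraries 1 to 3 and 0.818, 1.05 and 0.888 FPKM in gluteal libraries 1 to 3, a difference of -0.97 ± 0.14. In both genes every gluteal value lay below every longissimus value, which was a condition for naming them.

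Of the genes in the lists and among the smallest p, KCNJ11 and STBD1 differed by the most. KCNJ11 encodes Kir6.2, the pore of a potassium channel that ATP closes and that links the energy state of a muscle fibre to its excitability. It stood at 52.5, 65.8 and 62.7 FPKM in longissimus libraries 1 to 3 and 2.703, 0 and 1.75 FPKM in gluteal libraries 1 to 3, a log2 difference of -4.82 ± 0.90 with an adjusted p of 0.525. Among the Sanfen libraries KCNJ11 was at 47.8, 42.1 and 55.4 FPKM in longissimus and 1.83, 60.3 and 39.8 FPKM in gluteal muscle, so low values also occurred in 1 Sanfen gluteal library, replicate 1. Without that library the adjusted p was 0.00103 (limma). The Wutou difference stayed at -4.82, since Sanfen libraries enter its test only through the spread between libraries. No other alternative called KCNJ11 at an adjusted p under 0.05, and the fit to only the Wutou libraries did not call it. ABCC9, the regulatory partner of the channel in muscle and a gene named after its values were seen, did not follow: 13.1, 11.98 and 13.9 FPKM in longissimus libraries 1 to 3 and 9.91, 11.9 and 20.96 FPKM in gluteal libraries 1 to 3, a difference of 0.061 ± 0.26 with overlapping groups.

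STBD1 binds glycogen and tethers it to membranes for breakdown in lysosomes. Its values were 12.9, 15.9 and 13.8 FPKM in longissimus libraries 1 to 3 and 0.518, 0.6703 and 1.41 FPKM in gluteal libraries 1 to 3, a log2 difference of -3.05 ± 0.71 with an adjusted p of 0.760. All 3 longissimus libraries were high and all 3 gluteal libraries low. In Sanfen it was low in longissimus and high in 2 of 3 gluteal libraries, with 0.579, 0.263 and 0.7695 FPKM in longissimus and 0.715, 17.8 and 18.1 FPKM in gluteal muscle. The Wutou difference was called when only the 6 Wutou libraries were fitted (adjusted p = 0.0116) and without Sanfen gluteal 1 (adjusted p = 0.000173). Over the 12 libraries KCNJ11 was at most 2.703 or at least 39.8 FPKM and STBD1 at most 1.41 or at least 12.9 FPKM, with no value between.

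Further genes lower in gluteal muscle had smaller steps. TPRN, which encodes taperin, an actin-bundling protein known from the hair cells of the inner ear, was at 35.1, 26.4 and 18.8 FPKM in longissimus libraries 1 to 3 and 9.09, 6.096 and 11.7 FPKM in gluteal libraries 1 to 3, a difference of -1.48 ± 0.30. TSC22D3, the glucocorticoid-induced leucine zipper, was at 7.86, 12.2 and 11.1 against 5.48, 6.88 and 4.76 FPKM, a difference of -0.75 ± 0.21. PC, pyruvate carboxylase, which refills the citrate cycle with oxaloacetate, was at 3.65, 4.17 and 3.96 against 2.09, 1.68 and 2.65 FPKM, a difference of -0.66 ± 0.19. These 3 genes did not overlap between muscles, which was a condition for naming them, and none passed the adjusted threshold. SOCS7, a suppressor of cytokine signalling, was at 6.22, 9.68 and 6.03 against 5.12, 3.76 and 3.06 FPKM, and KPTN, a subunit of a complex that restrains mTORC1, at 5.81, 5.27 and 4.38 against 2.51, 2.55 and 4.09 FPKM. ABT1, an activator of basal transcription, was at 1.92, 2.15 and 2.66 against 0.614, 0.576 and 0.802 FPKM, and MRPS21, of the small mitochondrial ribosomal subunit, at 11.6, 3.97 and 4.72 against 2.09, 1.89 and 2.64 FPKM, with longissimus 1 well above the other libraries. ABT1 reached 1 FPKM in longissimus alone, so its separation was fixed by the filter. Their adjusted p lay between 0.613 and 0.818.

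**Figure D2:**
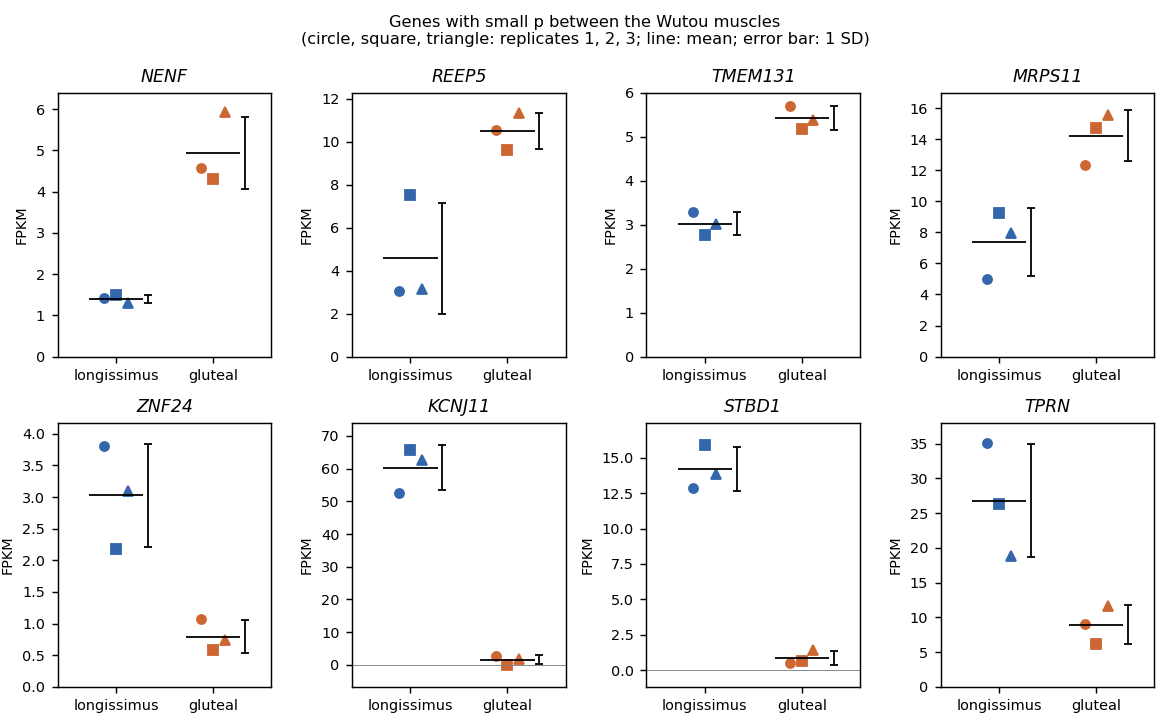
FPKM of 8 genes in the 3 longissimus (blue) and 3 gluteal (orange) Wutou libraries, with circle, square and triangle for replicates 1, 2 and 3, a line at the mean and a bar of 1 SD. In each panel the groups do not overlap, which was a condition for choosing these genes. KCNJ11 and STBD1 are close to 0 in the gluteal libraries, and the difference in none of the 8 genes passed the adjusted threshold.

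Of the fast fibre list, 11 of 17 genes were tested, and 1 was higher and 10 were lower in gluteal muscle, with a median log2 difference of -0.40 against 0.045 over all loci and -0.24 over loci of at least 100 FPKM. The groups did not overlap in 4 genes, all lower in gluteal muscle (36.4% of the list against 4.65% of all loci and 17.98% of loci of at least 100 FPKM). Loci of at least 100 FPKM include members of the list, so that band is not independent of it. PGAM2, the muscle phosphoglycerate mutase of glycolysis, was at 1306, 1377 and 1375 FPKM in longissimus libraries 1 to 3 and 610.1, 252 and 1287 FPKM in gluteal libraries 1 to 3, a difference of -1.21 ± 0.54. Gluteal 3 came close to the lowest longissimus library, and the other gluteal libraries were far lower. ACTN3, the alpha-actinin of fast fibre Z-discs, was at 363, 389 and 366 FPKM in longissimus libraries 1 to 3 and 183, 316 and 291 FPKM in gluteal libraries 1 to 3, a difference of -0.54 ± 0.37. MYBPC2, the fast myosin-binding protein C, was at 1104, 1166 and 1062 FPKM in longissimus libraries 1 to 3 and 579.7, 788 and 1002 FPKM in gluteal libraries 1 to 3, a difference of -0.53 ± 0.33. TPM1, a tropomyosin, was at 896, 777 and 784 against 439.9, 684 and 603 FPKM, a difference of -0.53 ± 0.54. In ACTN3, MYBPC2 and TPM1 the lowest of all 6 values was gluteal 1.

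The remaining fast genes overlapped between the muscles. MYLPF, the fast regulatory light chain, was at 3364, 3053 and 2590.3 FPKM in longissimus libraries 1 to 3 and 1449, 2469.9 and 2645 FPKM in gluteal libraries 1 to 3, and MYOZ1, a Z-disc calcineurin binder, at 705, 847 and 799 against 377, 698 and 793 FPKM. Gluteal 1 was again the lowest library in both. Differences were -0.24 for TNNI2 and -0.19 for TNNC2, the fast inhibitory and calcium-binding troponins, -0.28 for MYL1, the fast essential light chain, and -0.28 for CASQ1, the calcium store protein of fast fibres. ATP2A1, the fast calcium pump, was at 1064, 1333 and 1026 FPKM in longissimus libraries 1 to 3 and 1199, 1039.5 and 1261 FPKM in gluteal libraries 1 to 3, a difference of 0.037 ± 0.29, and its sign turned after median-of-ratios rescaling. Without gluteal 1 the list median was -0.16, with 10 of 11 genes still lower, and after quantile normalization it was -0.086, with 4 genes higher and 7 lower. The mean level of the list, relative to each gene's own mean, was 0.18, 0.27 and 0.18 in longissimus and -0.55, -0.17 and 0.086 in gluteal muscle. In Sanfen 7 of the same 11 genes were higher and 4 lower in gluteal muscle, with a median of 0.046.

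Myosin heavy chains could only be read in part, because the assembled loci merge neighbouring genes, and the following loci were named after their values were seen. A locus spanning MYH13, MYH2 and MYH8 was at 888, 890.5 and 992 FPKM in longissimus libraries 1 to 3 and 1038, 1211 and 1115 FPKM in gluteal libraries 1 to 3, a difference of 0.28 ± 0.32. Its gluteal values were all higher, opposite in sign to the fast fibre list median. A locus named MYH6 was at 995, 1919 and 1136 FPKM in longissimus libraries 1 to 3 and 1171, 817 and 860.1 FPKM in gluteal libraries 1 to 3, with longissimus 2 far above the others. MYH6 and its neighbour MYH7, the slow myosin, are nearly identical, so the assignment of these reads is uncertain. A merged locus of TNNT3, the fast troponin T, and LSP1 was at 507, 517 and 635 against 396, 565 and 501 FPKM.

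Of the slow fibre list, 16 of 18 genes were tested, and 3 were higher and 13 lower in gluteal muscle. The list median was -0.20, against 0.045 over all loci and -0.24 over loci of at least 100 FPKM, which include members of the list. The counts were 8 and 8 both without longissimus 2 and after quantile normalization, and the median was -0.36 without longissimus 1. MYBPC1, the slow myosin-binding protein C, was the 1 gene without overlap, at 104, 149 and 147 FPKM in longissimus libraries 1 to 3 and 241, 164 and 239 FPKM in gluteal libraries 1 to 3, a difference of 0.68 ± 0.26, higher in gluteal muscle. That is 6.25% of the list on the higher side, against 8.92% of all loci. The share on the lower side was 0, against 4.65% of all loci and 17.98% of loci of at least 100 FPKM. The mechanically sensitive genes CSRP3, the muscle LIM protein, and ANKRD2, a titin-bound ankyrin repeat protein, spread widely. CSRP3 was at 592, 973 and 523 FPKM in longissimus libraries 1 to 3 and 554, 338 and 67.6 FPKM in gluteal libraries 1 to 3, and ANKRD2 at 47.8, 48.1 and 35.9 FPKM in longissimus libraries 1 to 3 and 49.5, 9.57 and 3.99 FPKM in gluteal libraries 1 to 3. In both genes gluteal 1 lay with the longissimus libraries, gluteal 2 was lower and gluteal 3 lowest, giving differences of -1.52 ± 0.67 and -1.68 ± 0.91. TNNC1, the slow troponin C, was at 567, 1216 and 846 FPKM in longissimus libraries 1 to 3 and 546, 523 and 639 FPKM in gluteal libraries 1 to 3, a difference of -0.56 ± 0.35, its longissimus values spanning more than the difference between the means.

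The other slow genes gave differences smaller than their standard errors, or in TPM3 close to it. The values were -0.41 for TPM3, the slow tropomyosin, -0.29 for CASQ2, the calcium store protein of slow fibres, 0.33 for MYOZ2 and -0.25 for MYH7B. The slow troponins TNNT1 and TNNI1 gave -0.20 and -0.21, the light chains MYL2 and MYL3 gave -0.13 and -0.17, and FHL1, a LIM protein, gave -0.22. MB, the oxygen carrier myoglobin, was at 3379, 2934 and 3616 FPKM in longissimus libraries 1 to 3 and 2677, 3173 and 3583 FPKM in gluteal libraries 1 to 3, a difference of -0.079 ± 0.38. ATP2A2, the slow calcium pump, and ACTN2, the alpha-actinin of all fibres, gave -0.044 and 0.018, and the sign of both turned under a rescaling. Longissimus 2 had the highest value of the 6 libraries in MYL3, TNNI1, TNNT1, TNNC1, FHL1 and CSRP3. In Sanfen 10 of the same 16 slow fibre genes were higher and 6 lower in gluteal muscle, with a median of 0.084.

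**Figure D3:**
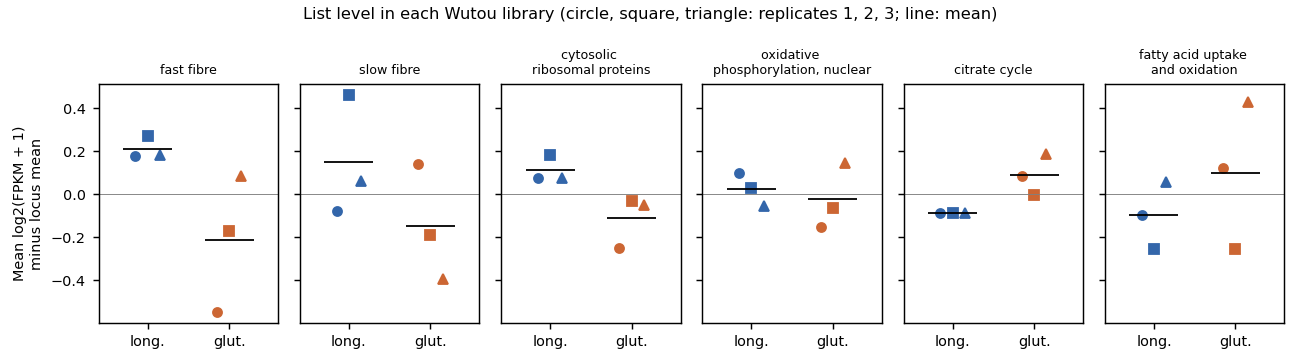
Mean log2(FPKM + 1) of 6 gene lists in each Wutou library, as the difference from each locus's mean over the 6 libraries, with circle, square and triangle for replicates 1, 2 and 3 and a line at the group mean. The longissimus and gluteal libraries do not overlap in the fast fibre, ribosomal and citrate cycle panels; gluteal 1 is lowest in the fast fibre and ribosomal panels and longissimus 2 highest in slow fibre.

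Excitation and calcium handling genes lay on both sides. Of the 19 tested genes of excitation-contraction coupling, 7 were higher and 12 lower, with a median of -0.11; these turned to 11 and 8 with a median of 0.035 after quantile normalization, and to 10 and 9 with 0.056 without gluteal 1. CACNA1S, the voltage sensor of the T-tubule, was at 59.3, 71.5 and 68.8 FPKM in longissimus libraries 1 to 3 and 57.5, 47.7 and 57.96 FPKM in gluteal libraries 1 to 3, a difference of -0.29 ± 0.25 without overlap. STIM1, the calcium sensor of the reticulum that refills its store, was at 1.95, 3.24 and 3.67 against 4.78, 3.76 and 3.98 FPKM, a difference of 0.41 ± 0.24, also without overlap. ASPH, of the reticulum, was at 1.298, 1.58 and 2.37 against 2.24, 2.11 and 1.896 FPKM, with overlap. Of the 16 tested channel and pump genes of the membrane, KCNJ11 among them, 7 were higher and 9 lower, with a median of -0.057, turning to 9 and 7 without longissimus 2. Their mean level, relative to each gene's own mean, did not overlap between muscles, at 0.13, 0.33 and 0.067 in longissimus and -0.13, -0.40 and 0.0041 in gluteal muscle. With KCNJ11 left out, chosen after its values were seen, the mean levels overlapped, at -0.012, 0.19 and -0.093 in longissimus and -0.033, -0.19 and 0.14 in gluteal muscle. ATP1B1, a sodium pump subunit, differed by 0.46 ± 0.26 without overlap, while KCNA7, a voltage-gated potassium channel, differed by 0.32 ± 0.17 with overlap.

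Glycolysis and glycogen genes were divided. Of 36 tested genes, 17 were higher and 19 lower in gluteal muscle, with a median of -0.0054, and the majority turned to 21 higher and 15 lower after quantile normalization. The groups did not overlap in 5 genes on the lower side (13.9% against 4.65% of all loci and 10.6% of loci between 20 and 100 FPKM, where the median member stood at 32.2 FPKM) and 2 on the higher side (5.56% against 8.92% of all loci). Over both rescalings and each Wutou library left out, the median ran from -0.075, without longissimus 2, to 0.068, after quantile normalization. PGM1, phosphoglucomutase, which moves glucose phosphate into and out of glycogen, was at 270.2, 331 and 256 FPKM in longissimus libraries 1 to 3 and 116, 223 and 230.0 FPKM in gluteal libraries 1 to 3, a difference of -0.65 ± 0.33. PPP1R3C, a glycogen-targeting subunit of protein phosphatase 1 that favours glycogen synthesis, went the other way, at 1.44, 1.06 and 0.806 FPKM in longissimus libraries 1 to 3 and 3.86, 2.97 and 5.002 FPKM in gluteal libraries 1 to 3, a difference of 1.22 ± 0.53. PGAM1, the mutase form of other tissues, was at 2.17, 1.83 and 1.91 against 2.97, 2.43 and 2.55 FPKM, higher in gluteal muscle, while PGAM2 was lower.

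Among oxidative pathways, most of the citrate cycle list was higher in gluteal muscle. Of 19 tested genes, 14 were higher and 5 lower in gluteal muscle, with a median of 0.13, and 6 genes had no overlap on the higher side, none on the lower. These 6 are 31.6% of the list, against 8.92% of all loci, 6.62% of loci between 5 and 20 FPKM and 2.75% between 20 and 100 FPKM. The median member stood at 27.1 FPKM, and members lay in both bands. DLD, the shared E3 subunit of the 2-oxoacid dehydrogenases, was at 4.53, 2.901 and 4.57 FPKM in longissimus libraries 1 to 3 and 7.35, 7.41 and 6.62 FPKM in gluteal libraries 1 to 3, a difference of 0.72 ± 0.28. MDH1, the cytosolic malate dehydrogenase of the malate-aspartate shuttle, was at 78.7, 79.0 and 77.6 FPKM in longissimus libraries 1 to 3 and 107, 102 and 133 FPKM in gluteal libraries 1 to 3, a difference of 0.53 ± 0.26. The longissimus values of MDH1 were nearly equal, and every gluteal value was clearly higher. IDH3A, of mitochondrial isocitrate dehydrogenase, was at 5.46, 4.98 and 3.61 against 9.49, 5.46 and 8.003 FPKM, and SUCLG2, of succinyl-CoA ligase, at 9.02, 6.39 and 6.39 against 10.2, 10.3 and 9.53 FPKM. The number on the higher side was 12 after median-of-ratios rescaling, 16 after quantile normalization and 12 or 13 with each Wutou library left out, while the median was 0.066 after median-of-ratios rescaling, 0.23 after quantile normalization and 0.22 without gluteal 2. No member passed the adjusted threshold. In Sanfen 15 of the same 19 genes were higher and 4 lower in gluteal muscle, with a median of 0.18.

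Fatty acid genes had a similar count with more spread. Of 30 tested genes, 21 were higher and 9 lower in gluteal muscle, with a median of 0.21, and the groups did not overlap in 2 genes on the higher side (6.67% against 8.92% of all loci) and 1 on the lower (3.33% against 4.65%). FABP4, a fatty acid binding protein of adipocytes and capillaries, was at 4.18, 3.56 and 4.84 FPKM in longissimus libraries 1 to 3 and 5.01, 6.89 and 6.24 FPKM in gluteal libraries 1 to 3, a difference of 0.44 ± 0.16. SLC27A4, a fatty acid transporter, was at 2.39, 2.72 and 2.899 against 3.82, 3.21 and 3.31 FPKM, a difference of 0.28 ± 0.12. ETFDH, which passes electrons from beta-oxidation to ubiquinone, was at 6.99, 5.001 and 7.39 against 8.08, 7.14 and 10.99 FPKM, and CD36, the main fatty acid uptake protein of muscle, at 14.7, 5.398 and 14.9 FPKM in longissimus libraries 1 to 3 and 17.3, 11.2 and 28.7 FPKM in gluteal libraries 1 to 3. CD36 overlapped between muscles, with gluteal 3 highest and longissimus 2 lowest, and the list median was 0.049 without gluteal 3, 0.12 without longissimus 2 and 0.37 without gluteal 2. In Sanfen 25 of the same 30 genes were higher and 5 lower in gluteal muscle, with a median of 0.26.

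Nuclear genes of oxidative phosphorylation lay on both sides in Wutou, in proportions that moved with the scaling and with single libraries. Of 74 tested genes, 28 were higher and 46 lower in gluteal muscle, with a median of -0.056, turning to 41 higher and 33 lower after quantile normalization. The split was 19 and 55 after median-of-ratios rescaling, with a median of -0.12, and also without gluteal 3 (-0.17). It was 20 and 54 without longissimus 3 (-0.1006), but near even without longissimus 2, gluteal 1 or gluteal 2, with 36, 38 and 37 genes higher. NDUFS1, the largest subunit of complex I, was at 12.3, 15.9 and 16.4 FPKM in longissimus libraries 1 to 3 and 27.5, 17.9 and 22.96 FPKM in gluteal libraries 1 to 3, a difference of 0.58 ± 0.21. NDUFA7, an accessory subunit of the same complex, was at 41.3, 43.01 and 35.5 FPKM in longissimus libraries 1 to 3 and 26.5, 24.5 and 21.8 FPKM in gluteal libraries 1 to 3, a difference of -0.70 ± 0.21. NDUFS1 and NDUFA7 lay on opposite sides, each without overlap. Over the list the groups did not overlap in 2 genes on the higher side (2.7% against 8.92% of all loci) and 3 on the lower (4.05% against 4.65%). COX6A1, the complex IV subunit form of non-muscle tissue, was at 0.799, 1.32 and 1.81 against 2.18, 3.03 and 1.93 FPKM, and COX4I1 at 182, 287 and 227 against 147, 198 and 141 FPKM. CKMT2, the mitochondrial creatine kinase, named after its values were seen, was at 279, 268 and 217 FPKM in longissimus libraries 1 to 3 and 327, 314 and 318 FPKM in gluteal libraries 1 to 3, higher in gluteal muscle without overlap. In Sanfen, 72 of the same 74 genes were higher in gluteal muscle, with a median of 0.36; whether the lists differ between strains was not tested.

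Regulators of mitochondrial content gave 11 of 13 tested genes higher in gluteal muscle, with a median of 0.29. Over all loci 57.4% were higher, and 60.8% of loci between 2 and 5 FPKM. The count was 8 of 13 after either rescaling and without gluteal 1, where the median was 0.14. The median was 0.13 without longissimus 2. In Sanfen 5 of the same 13 genes were higher and 8 lower in gluteal muscle, with a median of -0.022. Most members were weakly expressed, with a median level of 2.46 FPKM. PRKAA2, the catalytic AMPK subunit of muscle, was at 7.33, 5.79 and 2.16 FPKM in longissimus libraries 1 to 3 and 9.999, 7.801 and 8.82 FPKM in gluteal libraries 1 to 3, a difference of 0.80 ± 0.41. PPARA, a nuclear receptor for fatty acids, was at 4.496, 1.65 and 2.82 against 6.32, 4.53 and 4.42 FPKM, a difference of 0.66 ± 0.27 with overlap. The hypoxia factors HIF1A and EPAS1 differed by 0.39 ± 0.19 and 0.29 ± 0.16, also with overlap.

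Cytosolic ribosomal proteins build the ribosomes that translate muscle mRNA, and most of their genes were lower in gluteal muscle. Of 75 tested genes, 9 were higher and 66 lower in gluteal muscle. The list median was -0.24, against -0.24 over all loci of at least 100 FPKM and -0.13 over loci between 20 and 100 FPKM. Both bands include members of the list, so they are not independent of it. The groups did not overlap in 21 genes on the lower side, 28% of the list against 4.65% of all loci, 10.6% of loci between 20 and 100 FPKM and 17.98% of loci of at least 100 FPKM; the median member stood at 94.2 FPKM. RPS15 was at 209, 200.1 and 184 FPKM in longissimus libraries 1 to 3 and 136, 134 and 136 FPKM in gluteal libraries 1 to 3, a difference of -0.54 ± 0.20. Its gluteal values were nearly equal and lay well below the lowest longissimus value. RPL15 was at 13.6, 25.2 and 22.05 FPKM in longissimus libraries 1 to 3 and 8.87, 13.3 and 10.5 FPKM in gluteal libraries 1 to 3, also without overlap. RPL36 was at 2.32, 3.76 and 2.70 against 1.27, 2.07 and 2.33 FPKM, where gluteal 3 overlapped longissimus 1 by a narrow margin. The number of genes on the higher side was 14 without gluteal 1, with a median of -0.16, 14 without longissimus 1, with a median of -0.27, 7 after median-of-ratios rescaling and 22 after quantile normalization, with a median of -0.12. Ribosomal protein genes have many near-identical processed copies in mammalian genomes, and how reads were shared among copies is not stated in the labels used here. In Sanfen 72 of the same 75 genes were higher in gluteal muscle, with a median of 0.28.

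Mitochondrial ribosomal proteins were split, 23 higher and 37 lower of 60, with a median of -0.062, and 31 higher and 29 lower without longissimus 1, and the median was -0.13 after median-of-ratios rescaling and -0.12 without gluteal 3. MRPL14 was at 15.7, 12.9 and 9.36 FPKM in longissimus libraries 1 to 3 and 4.995, 2.17 and 7.99 FPKM in gluteal libraries 1 to 3 and MRPL49 at 4.75, 4.77 and 5.001 FPKM in longissimus libraries 1 to 3 and 1.58, 1.402 and 1.69 FPKM in gluteal libraries 1 to 3, lower in gluteal muscle without overlap, with differences of -1.27 ± 0.44 and -1.19 ± 0.46. MRPS2 was at 2.85, 4.12 and 14.1 FPKM in longissimus libraries 1 to 3 and 16.5, 15.6 and 14.04 FPKM in gluteal libraries 1 to 3, a difference of 1.29 ± 0.40; longissimus 3 lay with the gluteal libraries. Proteasome subunits were divided as well, 14 higher and 19 lower of 33, and 18 and 15 after quantile normalization. PSMD13, a lid subunit, differed by -0.43 ± 0.18 without overlap, PSMC4 by -0.24 ± 0.16, PSMD1 by 0.43 ± 0.21 and PSMD12 by 0.64 ± 0.41.

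**Figure D4:**
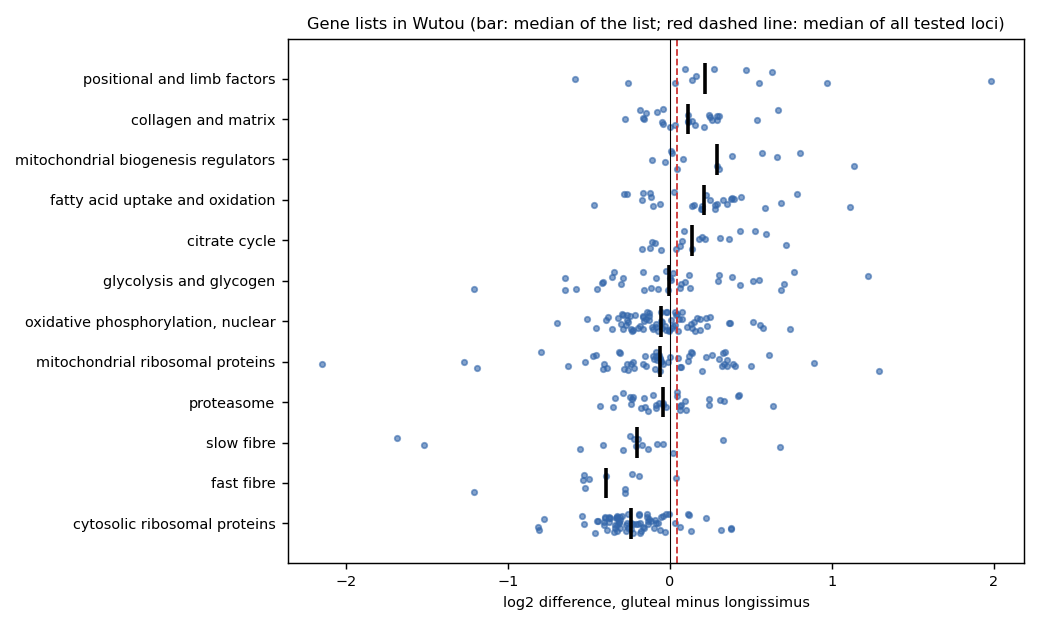
log2 difference (gluteal minus longissimus, log2(FPKM + 1) scale) of each tested member of 12 gene lists, 1 point per gene, with a black bar at the list median and a dashed red line at the median of all 9734 loci, 0.045. The ribosomal list sits almost wholly left of 0 with a median of -0.24, against -0.24 over all loci of at least 100 FPKM, which include members of the list. The citrate cycle and fatty acid lists have medians of 0.13 and 0.21.

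Positional factors were few at 1 FPKM or more. Of 34 positional and limb genes 12 were tested, and 10 were higher and 2 lower in gluteal muscle, with a median of 0.22, which was 0.072 without gluteal 2, 0.43 without longissimus 3 and 0.35 without gluteal 3. In Sanfen 11 of the same 12 genes were higher and 1 lower, with a median of 0.19. TBX1, a T-box factor of pharyngeal mesoderm and head muscle development, was at 1.64, 0.843 and 0.656 FPKM in longissimus libraries 1 to 3 and 10.4, 4.403 and 7.03 FPKM in gluteal libraries 1 to 3, a difference of 1.98 ± 0.61. The gluteal values spread widely but all lay well above the highest longissimus value. In Sanfen TBX1 was at 1.15, 2.84 and 0.861 FPKM in longissimus and 0.669, 4.04 and 12.7 FPKM in gluteal muscle, with overlap. The bHLH factors SIM2 and SIM1 were at 0.477, 1.02 and 0.234 against 0.0536, 5.199 and 3.21 FPKM and 1.099, 1.44 and 0.888 against 0.133, 0.176 and 1.15 FPKM, both overlapping.

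Of the homeobox cluster genes, HOXD1 was the 1 anterior gene tested. It was at 3.09, 2.77 and 2.13 FPKM in longissimus libraries 1 to 3 and 0.735, 1.11 and 0.858 FPKM in gluteal libraries 1 to 3, a difference of -0.94 ± 0.21 without overlap, lower in gluteal muscle. Of 22 posterior genes 4 were tested. HOXC10, a gene of the lumbar and hindlimb region, was at 1.62, 1.51 and 1.63 against 2.43, 2.79 and 1.75 FPKM, higher in gluteal muscle without overlap, and HOXA9 at 2.81, 0.853 and 1.46 against 3.38, 3.35 and 2.75 FPKM, where gluteal 3 fell just under longissimus 1. HOXC9 was lower in gluteal muscle, where replicates 1 and 3 were listed at 0 and replicate 2 was at 0.644 FPKM, against 2.37, 1.03 and 1.66 FPKM in longissimus. It was tested only because all 3 longissimus libraries reached 1 FPKM, so this separation was fixed by the filter. HOXD8 was at 9.496, 4.83 and 6.11 against 5.69, 7.53 and 5.87 FPKM, a difference of -0.0499 ± 0.34.

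**Figure D5:**
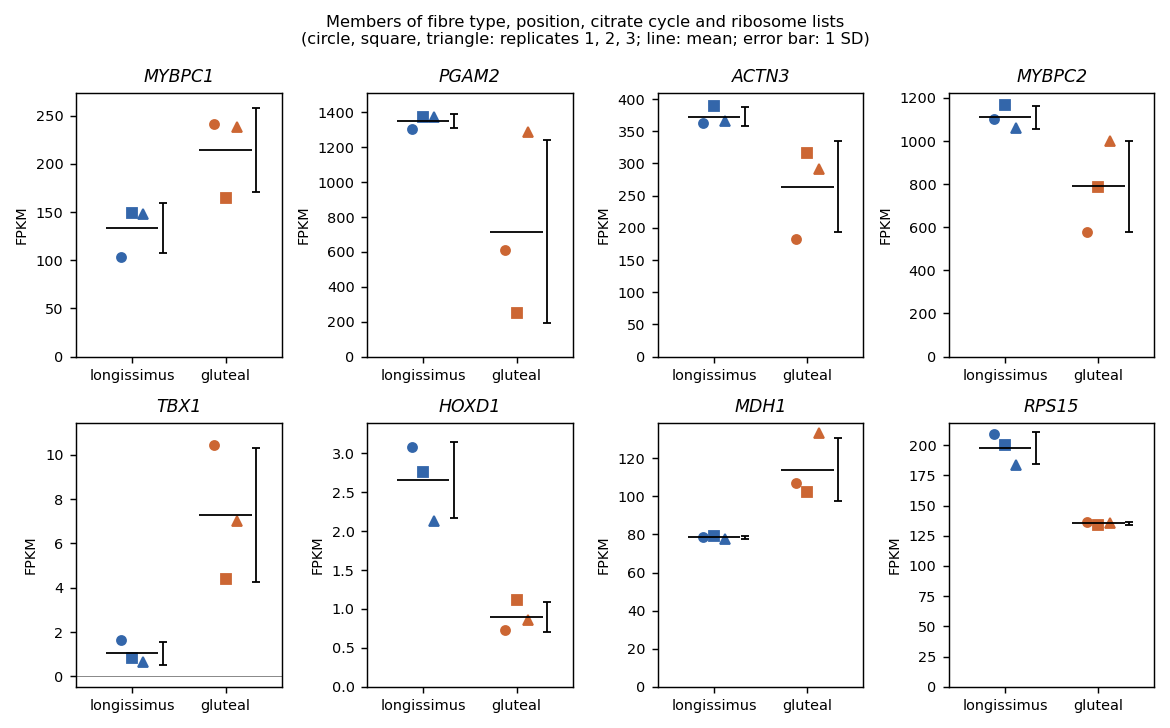
FPKM of 8 list members in the 3 longissimus (blue) and 3 gluteal (orange) Wutou libraries, with circle, square and triangle for replicates 1, 2 and 3, a line at the mean and a bar of 1 SD. MYBPC1, TBX1 and MDH1 are higher in all 3 gluteal libraries, and PGAM2, ACTN3, MYBPC2, HOXD1 and RPS15 lower, with a wide gluteal spread in PGAM2.

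Genes of muscle maintenance and stress were divided, and in each of these lists the majority changed side under a rescaling or with 1 library left out. Of 15 satellite cell and myogenic genes 8 were higher and 7 lower (6 and 9 without gluteal 1 or without gluteal 2, 7 and 8 without longissimus 3), among them MEF2C, a myocyte enhancer factor, at 3.19, 1.89 and 3.41 against 3.47, 4.78 and 3.57 FPKM, without overlap, MEF2A at 3.405, 2.102 and 4.08 against 4.24, 3.47 and 5.896 FPKM, and MYF6, a myogenic factor of mature fibres, at 12.1, 6.27 and 16.1 FPKM in longissimus libraries 1 to 3 and 2.39, 7.43 and 5.097 FPKM in gluteal libraries 1 to 3. Of 22 growth and atrophy genes 12 were higher and 10 lower, but 8 and 14 after median-of-ratios rescaling and 10 and 12 after quantile normalization. KLF15, a glucocorticoid target that drives amino acid breakdown, was at 1.397, 1.07 and 0.497 against 1.65, 1.53 and 2.201 FPKM, a difference of 0.51 ± 0.18 without overlap, while FSTL3, a myostatin and activin inhibitor, SMAD7 and MAP1LC3B, an autophagosome protein, differed by 0.63 ± 0.30, 0.56 ± 0.28 and 0.43 ± 0.25. Of 17 immediate early genes 10 were higher and 7 lower, but 5 and 12 without gluteal 1, 7 and 10 without longissimus 3, and 8 and 9 without longissimus 2 and after median-of-ratios rescaling. Without longissimus 1 or without gluteal 3 the split was 12 and 5. KLF6 was at 1.59, 1.64 and 2.28 against 3.37, 2.59 and 4.52 FPKM, without overlap, and DUSP1, FOSB and MYC overlapped, with differences of -0.53 ± 0.35, 0.52 ± 0.50 and 0.38 ± 0.32. Of 27 chaperones 10 were higher and 17 lower, but 17 and 10 without gluteal 3 and 13 and 14 after quantile normalization. HSPA9, the mitochondrial HSP70, was at 28.1, 27.8 and 30.2 FPKM in longissimus libraries 1 to 3 and 47.4, 34.2 and 33.5 FPKM in gluteal libraries 1 to 3, without overlap, and HSPB1, the small heat shock protein of Z-discs, at 758, 1054 and 807 FPKM in longissimus libraries 1 to 3 and 764, 722 and 233 FPKM in gluteal libraries 1 to 3, where gluteal 3 alone was low. BAG3, a cochaperone of HSP70, and HSP90B1, of the reticulum, differed by 0.71 ± 0.36 and 0.72 ± 0.39 with overlap.

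The splits of the clock and antioxidant lists also turned with single libraries. Of 16 clock genes 11 were higher and 5 lower in gluteal muscle, but 5 and 11 without gluteal 2, 6 and 10 without longissimus 1, and 8 and 8 without longissimus 3, without gluteal 3 and after median-of-ratios rescaling. The groups did not overlap in 3 clock genes on the higher side (18.75% against 8.92% of all loci) and 1 on the lower (6.25% against 4.65%). CLOCK, the core activator, was at 1.23, 1.79 and 1.89 against 2.44, 1.96 and 2.24 FPKM and CRY1, a core repressor, at 1.602, 1.64 and 1.21 against 1.76, 1.77 and 2.31 FPKM, both without overlap. The output factors TEF and HLF differed by -0.98 ± 0.57 and -0.33 ± 0.17. The hour of sampling was not among the labels used here. Of 20 antioxidant genes 9 were higher and 11 lower, but 11 and 9 without gluteal 1, and the groups did not overlap in 2 on the higher side and 1 on the lower, shares of 10% and 5% that lay near those of all loci. PRDX3, the mitochondrial peroxiredoxin, was at 28.8, 25.6 and 27.1 FPKM in longissimus libraries 1 to 3 and 40.2, 32.98 and 37.6 FPKM in gluteal libraries 1 to 3, a difference of 0.43 ± 0.17. PRDX5, its relative in mitochondria, peroxisomes and cytosol, was at 24.2, 33.7 and 28.1 FPKM in longissimus libraries 1 to 3 and 16.3, 17.6 and 23.8 FPKM in gluteal libraries 1 to 3, a difference of -0.56 ± 0.21, so the 2 genes lay on opposite sides without overlap. GCLC, of glutathione synthesis, and TXN2, mitochondrial thioredoxin, differed by 0.21 ± 0.15 and -0.36 ± 0.22.

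Matrix genes were divided, and their counts moved with several libraries. Of 25 collagen and matrix genes 15 were higher and 10 lower, with a median of 0.11. The split was 8 and 17 (median -0.057) without gluteal 2, 21 and 4 (0.29) without gluteal 3, 20 and 5 (0.197) without longissimus 3 and 19 and 6 (0.102) after quantile normalization, and the median was 0.0043 without longissimus 1. COL1A1, of type I collagen, was at 6.53, 8.92 and 11.04 FPKM in longissimus libraries 1 to 3 and 19.5, 27.8 and 3.64 FPKM in gluteal libraries 1 to 3, with gluteal 2 highest and gluteal 3 lowest of all 6. COL12A1, a fibril-associated collagen, was at 2.44, 1.23 and 2.21 against 4.03, 4.25 and 2.74 FPKM, without overlap, and VCAN and TIMP2 differed by 0.30 ± 0.22 and 0.25 ± 0.25. TNC, the tenascin of muscle-tendon junctions, was at 0.986, 0.711 and 0.732 FPKM in longissimus libraries 1 to 3 and 1.56, 2.597 and 2.35 FPKM in gluteal libraries 1 to 3, a difference of 0.80 ± 0.30. It was tested only because all 3 gluteal libraries reached 1 FPKM, so the lack of overlap was fixed by the filter. The other tendon markers FMOD, BGN and ASPN overlapped, at 0.32, 0.21 and 0.18.

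Summed marker levels overlapped between the muscles in these lists. Fibroblast markers summed to 200.2 to 265 FPKM in longissimus and 173 to 250.3 FPKM in gluteal muscle, endothelial markers to 94.2 to 120.1 and 104 to 144, and immune markers to 63.5 to 87.7 and 65.005 to 105 FPKM. Adipocyte markers summed to 42.6 to 49.7 and 48.4 to 60.7 FPKM, tendon markers to 34.95 to 52.95 and 35.4 to 62.8, nerve markers to 6.88 to 10.96 and 5.65 to 12.1, and smooth muscle markers without DES to 121 to 141 and 100.5 to 152 FPKM. Their part in the muscle differences was not tested. Of the single markers, LPL, which frees fatty acids from lipoproteins, was at 2.596, 2.85 and 5.98 against 5.12, 4.34 and 14.1 FPKM, PLIN4, a lipid droplet coat protein, at 18.5, 11.8 and 10.9 against 27.1, 18.3 and 19.5 FPKM, and SCD, a fatty acid desaturase, at 7.21, 8.89 and 1.603 against 1.16, 2.83 and 0.987 FPKM, all overlapping. CNN1, a smooth muscle calponin, was higher without overlap, at 3.63, 3.59 and 3.34 against 4.31, 5.01 and 5.401 FPKM, while KDR and CD74 overlapped, at 0.35 and 0.31. Of the 12 tested immune genes 3 were higher and 9 lower in gluteal muscle.

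Whether the muscle difference of Wutou differs from that of Sanfen was tested as an interaction in the same limma model, over the same 9734 loci. It was called for 1 locus (0.0103%) and had an unadjusted p under 0.05 for 241 (2.48%). The called locus was ZNF24, with an interaction of -2.74 ± 0.23 and an adjusted p of 0.000946. Against the Wutou values above, Sanfen had 0.558, 0.468 and 0.572 FPKM in longissimus and 3.82, 3.49 and 3.51 FPKM in gluteal muscle, so the order of the muscles was the opposite in the 2 strains, without overlap in either.

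The next loci by p did not pass. COMMD1, a copper and NF-kappaB regulator, was at 4.72, 6.44 and 4.32 against 3.81, 4.196 and 3.27 FPKM in Wutou and at 2.904, 2.802 and 2.62 against 10.05, 9.99 and 7.35 FPKM in Sanfen, an interaction of -1.77 ± 0.24 (adjusted p = 0.0628). BTBD9, a ubiquitin ligase adaptor, was at 0.609, 0.795 and 0.583 against 1.41, 1.14 and 1.38 FPKM in Wutou and 2.04, 3.01 and 2.52 against 1.17, 1.10 and 1.08 FPKM in Sanfen, an interaction of 1.20 ± 0.19. In Wutou, BTBD9 reached 1 FPKM in the gluteal libraries alone, so its separation there was fixed by the filter. The order of the muscles differed between strains in both genes, as it did in COX7C, a complex IV subunit, at 195, 157 and 143 against 129, 127 and 120.2 FPKM in Wutou and 83.5, 52.1 and 77.95 against 198, 207 and 158 FPKM in Sanfen. KIAA0513 had an interaction of -1.12 ± 0.20, from Sanfen values of 1.63, 1.44 and 1.102 against 1.51, 2.05 and 1.42 FPKM, and STBD1, named here from its muscle difference, had -5.53 ± 1.004.

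Of the 156 reference non-coding loci, 9 had no overlap on the higher side (5.77% against 8.92% of all loci) and 5 on the lower (3.21% against 4.65%), and 9 (5.77%) had an unadjusted p under 0.05, against 5.98% of all loci. The smallest p among them belonged to LOC106838497, named after its values were seen, at 1.596, 1.43 and 1.45 FPKM in longissimus and 0.879, 0.642 and 0.718 FPKM in gluteal muscle. By the naming rule, the uncharacterised gene LOC106825605 was at 0.875, 0.143 and 0.673 against 2.16, 1.67 and 2.21 FPKM and a merged locus of FILIP1L and LOC106838900 at 1.58, 1.34 and 1.22 against 2.78, 2.88 and 3.17 FPKM, both higher in gluteal muscle. LOC106838497 reached 1 FPKM in longissimus alone and LOC106825605 in gluteal muscle alone, so the filter fixed the separation of both. On the lower side, the unnamed locus MSTRG.19548 was at 13.5, 161 and 18.9 FPKM in longissimus libraries 1 to 3 and 0, 0 and 5.78 FPKM in gluteal libraries 1 to 3, with longissimus 2 far above all others, and a locus of YWHAH and DEPDC5 at 3.61, 4.02 and 3.84 against 0.819, 0.600 and 3.25 FPKM, with gluteal 3 near the longissimus values.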

How the data were processed

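Per the submitters' processing notes, cutadapt, Bowtie2 and TopHat2 were used; versions, genome build, strand setting and quantifier are not given in the sources used here. RNA kits for mRNA and small RNA are both named by the labels, which do not say which made this table. The authors deposited 1 table of FPKM per locus for 12 libraries, 3 per strain and muscle. Names were updated through RefSeq (EquAss-T2T_v2), which matched 3260 of 6221 LOC names; no sequence or coordinate is given.

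Loci with at least 1 FPKM in at least 3 of the 6 Wutou libraries were tested on log2(FPKM + 1) with limma 3.58.1 (R 4.3.3): a mean for each of 4 groups over all 12 libraries, a variance trend, two-sided tests and Benjamini-Hochberg adjustment over 9734 loci at 0.05. The script was tested on simulated data. With 3 libraries against 3, an exact permutation test cannot go below p = 0.1, so none was run. The members and lists were chosen with earlier results of these data known. Named genes are the 12 with the smallest p per direction, without overlap and with a mean of at least 2 FPKM in the higher group, up to 4 of each list, all tested fibre-type genes, the 5 smallest interaction p and 2 loci per direction without a reference symbol; some of these are not reported here. The alternatives were pseudocount, filter, rescaling, weights, replicate block, the Wutou libraries alone and each library left out.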

Additional observations from a re-analysis of the deposited data

Results flagged for a closer look

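ZNF24 was flagged because its muscle difference differed between the strains by a test of the difference itself. The interaction, Wutou minus Sanfen, was -2.74 on the log2(FPKM + 1) scale with a standard error of 0.23 and an adjusted p of 0.000946 (limma). In Wutou all 3 gluteal values lay below all 3 longissimus values, and in Sanfen all 3 gluteal values lay above.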

How the results depend on the processing

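The count of loci called between the Wutou muscles was 0. It was 1 with a pseudocount of 0.1 (NENF) and 1 with only the 6 Wutou libraries (STBD1). It was 3 with array weights, with a random replicate block and with median-of-ratios or quantile rescaling (NENF, ZNF24 and KIAA0513 each time, at adjusted p of 0.0249, 0.0249 and 0.0321 with the random block), and 582 at an unadjusted p. Leaving out 1 library gave 0 to 3. The interaction was called for 1 locus. That count was 2 without a filter, with either rescaling and with the random replicate block, 0 among loci with a mean of at least 5 FPKM, where ZNF24 was not tested, and 241 at an unadjusted p. Leaving out 1 library gave 1 to 5, with 5 without Sanfen gluteal 1.

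Same-numbered Wutou libraries deviated together with r = 0.18, 0.16 and 0.063. The third lies under the limit of 0.1 set for pairing, so the numbers were not taken as pairs. All 3 values were positive, and each library correlated best with its own number. The main fit thus took libraries that share animals as independent. A fixed replicate block called 0 loci and left 774 at an unadjusted p, and for the interaction it called 1. Unadjusted counts ran from 329 without Wutou longissimus 2 to 872 with array weights, with 153 of 2530 and 1308 of 27084 loci under the filter at 5 FPKM and no filter, where fewer or more loci were tested.

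Of 147 named loci, 125 kept the sign of their log2 difference under all 22 alternatives that could test them, and 22 did not, none of which was called; the cause was not tested. After quantile normalization the turned values were 0.018 for CASQ1, 0.0203 for MYL1, 0.19 for TNNC2, 0.048 for TNNT1, 0.093 for FHL1, 0.18 for MYL3, 0.14 for MYL2, 0.083 for ATP2A2, 0.023 for TNNT3 with LSP1 and 0.13 for MSTRG.13784. After median-of-ratios rescaling the turned values were -0.033 for ATP2A1, -0.053 for ACTN2 and -0.0043 for ABCC9. With array weights the turned values were 0.12 for FHL1 and -0.013 for ABCC9. Leaving out 1 library gave -0.035 to 0.15 for ATP2A1, -0.079 to 0.58 for MYOZ2, -0.54 to 0.0063 for MYH7B, -0.55 to 0.20 for FHL1, -0.43 to 0.18 for TNNI1, -0.35 to 0.16 for MYL3, -0.24 to 0.063 for MYL2 and -0.18 to 0.032 for MB. It gave -0.16 to 0.063 for ATP2A2, -0.31 to 0.26 for ACTN2, -0.24 to 0.19 for HOXD8, -0.0087 to 0.68 for MYC, -0.072 to 0.48 for TIMP2, -0.40 to 0.0076 for MSTRG.13784, -1.34 to 1.93 for MSTRG.6834, -1.82 to 2.72 for MSTRG.9671 and -0.23 to 0.27 for ABCC9.

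Read depth is unknown, so counting error behind low values such as NENF or ZNF24 could not be given, and a value of 0 can be a failed estimate.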

Other observations

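An assembled locus without a gene name, MSTRG.6834, was at 4773, 4189 and 132 FPKM in longissimus libraries 1 to 3 and 3559.7, 7879 and 195 FPKM in gluteal libraries 1 to 3 of Wutou. A further unnamed locus, MSTRG.9671, was at 2988, 4097 and 16.9 FPKM in longissimus libraries 1 to 3 and 3203, 4912 and 60.9 FPKM in gluteal libraries 1 to 3. In both loci replicate 3 of each Wutou muscle was the lowest library. In Sanfen, MSTRG.6834 was at 973, 1772 and 7736 FPKM in longissimus and 2621, 1549 and 14361 FPKM in gluteal muscle, where replicate 3 was the highest in both. MSTRG.9671 had the same order in Sanfen, at 332, 1156 and 6959.8 and 2163, 1002 and 17473 FPKM. Replicate 3 thus stood apart in both muscles of each strain, and whether same-numbered libraries share an animal was not tested. Both loci, and the most abundant one, MSTRG.13784, at 30519, 53910.5 and 44102 FPKM in longissimus libraries 1 to 3 and 30710.3, 39819 and 41019.7 FPKM in gluteal libraries 1 to 3, were chosen after their values were seen.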
